A study of Mus musculus with 57 samples.

Results

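The transcripts described here encode the subunits of the NMDA receptor: Grin1, Grin2a, Grin2b, Grin2c, Grin2d and Grin3a. They were taken by name, as the 6 of 18088 genes of the table whose Ensembl identifiers carry these symbols. The rule uses names and no measured value, though results of these data were known when the members were picked. On GRCm38 all lie on the minus strand. Grin1 (ENSMUSG00000026959) is at chromosome 2, 25291181 to 25319187, Grin2a (ENSMUSG00000059003) at chromosome 16, 9567898 to 9995560, and Grin2b (ENSMUSG00000030209) at chromosome 6, 135713233 to 136173511. Grin2c (ENSMUSG00000020734) is at chromosome 11, 115249169 to 115267243, Grin2d (ENSMUSG00000002771) at chromosome 7, 45831883 to 45878378, and Grin3a (ENSMUSG00000039579) at chromosome 4, 49661611 to 49845744. All 6 passed the filter on low values and were tested in every comparison. Each is a gene-level value that joins the gene's splice forms.

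NMDA receptors are glutamate-gated cation channels that pass calcium when glutamate and a co-agonist, glycine or D-serine, are bound while the membrane is depolarised. Each channel is a tetramer that needs GluN1, the product of Grin1, and is completed by GluN2 subunits (Grin2a to Grin2d), which bind glutamate and set the kinetics of the channel, or by GluN3 subunits such as that of Grin3a, which lower calcium permeability. In the forebrain GluN2B prevails early in life and GluN2A is added during postnatal development, so the balance of Grin2a and Grin2b is read as a mark of synapse maturation.

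RNA came from the prefrontal cortex of C57BL/6J mice, either WT (wild type) or HT, heterozygous for an allele named Shank3 delta C. Shank3 is a scaffold of the postsynaptic density that is linked to NMDA receptors through other scaffolds. Pups received vehicle, fluoxetine (a serotonin reuptake inhibitor) or lithium (a mood stabiliser) through the milk of their mothers for 3 weeks, from postnatal day 3 to 24, and tissue was collected on postnatal day 25. Both sexes were included, which gave 12 groups and 56 libraries: HT vehicle males had 3, WT lithium females and HT lithium males 4 each, and the other 9 groups 5 each. All mice shared the strain, the age and exposure by milk. The labels name no dose and no litter, so pups of 1 dam cannot be told apart from pups of different dams. As the drugs reached the pups through the dam, effects of litter and drug cannot be separated here. The tests judge differences against the spread between these samples and treat pups as independent. Their p-values may be too small if litters were shared.

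A short coding stretch, given for 5 members, shows how alike and how different they are. It encodes the Lurcher motif, the conserved segment of the third membrane helix that lines the channel gate. The stretches are given 5′ to 3′ on the coding strand, with capitals for G or C at the third position of a codon, because base composition entered some of the results below.
Grin1: tcCtaCactgcCaaCctGgcagcC
Grin2a: agttaCacagcCaaCctGgctgcC
Grin2c: agCtaCacGgcCaatctGgcagcC
Grin2d: agCtatacagcCaatctGgctgcC
Grin3a: acataCacagcGaaCttGgctgct
In GRCm38 the Grin1 stretch is at chr2:25297202-25297225, in exon 15 of 21 of the transcript with its longest coding sequence, and the Grin2a stretch at chr16:9653450-9653473, in exon 10 of 14. That of Grin2c is at chr11:115253752-115253775 (exon 11 of 15). Those of Grin2d and Grin3a are at chr7:45854282-45854305 (exon 8 of 12) and chr4:49770473-49770496 (exon 3 of 9). Of the 8 codons, 6 ended in G or C in Grin1 and Grin2c, 5 in Grin2a, and 4 in Grin2d and Grin3a. Over the whole coding sequence the share of such codons was 78.5% in Grin2d, 74.7% in Grin2c and 71.3% in Grin1, against 67.5% in Grin2b, 64.6% in Grin2a and 58.9% in Grin3a. By total GC content the longest transcripts kept this order apart from Grin3a: 65.0% in Grin2d, 62.1% in Grin2c, 59.4% in Grin1, 49.2% in Grin3a, 45.7% in Grin2b and 44.8% in Grin2a.

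Grin2c and Grin2d varied together between libraries, as described below, and their promoter windows are given for that reason. They run from 250 bases before to 50 after the RefSeq start (GRCm38.p6, minus strand, 5′ to 3′), and capitals mark GC boxes, searched as GGGCGG and its reverse complement CCGCCC.
Grin2c: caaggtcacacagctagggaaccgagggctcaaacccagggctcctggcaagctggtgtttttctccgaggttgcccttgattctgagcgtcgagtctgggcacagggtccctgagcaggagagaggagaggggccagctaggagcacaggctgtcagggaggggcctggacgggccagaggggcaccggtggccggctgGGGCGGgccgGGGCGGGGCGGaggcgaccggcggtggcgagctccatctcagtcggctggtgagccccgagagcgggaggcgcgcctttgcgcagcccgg
Grin2d: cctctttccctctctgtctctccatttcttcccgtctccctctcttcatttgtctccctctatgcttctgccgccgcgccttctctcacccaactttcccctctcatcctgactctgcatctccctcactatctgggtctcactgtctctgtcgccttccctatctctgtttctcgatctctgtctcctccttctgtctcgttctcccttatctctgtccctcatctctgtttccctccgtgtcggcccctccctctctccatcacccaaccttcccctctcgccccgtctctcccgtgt
The Grin2c window is chr11:115267194-115267493 and the Grin2d window chr7:45866632-45866931, which lies inside the annotated span of Grin2d rather than at its 5′ end. Grin2c held 3 matches, of which the last 2 overlap, Grin1 held 1 and Grin2d 0, where 35.7% of the 32851 windows of RefSeq genes held at least 1. GC content was 70.0% in the Grin2c window, 60.7% in that of Grin1 and 56.0% in that of Grin2d, with a median of 52.7% over all windows. A match describes letters only. Grin2a, Grin2b and Grin3a had no window in the table.

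Markers of cortical excitatory neurons were high in every library, with Slc17a7, their vesicular glutamate transporter, at 28646 or more normalised counts. Recovered reads numbered 22984556 to 35969254 per library. Markers of the olfactory bulb, which adjoins this region, varied within groups. The olfactory level used below averages 5 markers (Eomes, Doc2g, Cdhr1, Th, Trh), all measured, after dividing each by its own mean, and only Eomes was ever at 0 (3 libraries). The 14 libraries of highest level included 3 WT fluoxetine females, 3 HT lithium females and 2 WT lithium males, with 1 each in 6 other groups. How strongly log2 values followed the GC content of a transcript (the GC slope) also varied between libraries. One HT vehicle female (replicate 1) stood apart in choroid plexus genes and one HT lithium female (replicate 5) in mitochondrially encoded genes, and leaving out both changed no call of a member. Grin1 overlaps the antisense gene Grin1os, Grin2b the antisense genes Gm14330 and Gm26653, Grin2d the antisense gene Gm45441 and Kdelr1 on the other strand, and Grin3a overlaps Ppp3r2 on its own strand. The libraries were strand-specific, but how the counting treated strand was not given in the sources used here, so reads of such pairs may not be separable.

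Per kilobase of the longest annotated transcript, Grin1 was the most abundant member, at 3651 ± 484 normalised counts per kilobase (SD, n = 56). Grin2b followed at 812 ± 124 and Grin2a at 427 ± 69.0. Grin2c was at 306 ± 52.9, Grin3a at 218 ± 23.7 and Grin2d at 91.5 ± 19.8. Of the GluN2 transcripts per kilobase, Grin2b therefore made up 49.4%, Grin2a 26.0%, Grin2c 18.9% and Grin2d 5.67%. These shares depend on the length used, because the longest Grin2b and Grin2a transcripts have 24060 and 14634 bases but coding sequences of 4446 and 4392. Per kilobase of coding sequence Grin2b made up 69.0% and Grin2a 22.4%, and Grin3a then stood above Grin2c. Grin1 stayed first, Grin2b second and Grin2d last with either length.

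The make-up of GluN2 transcripts varied most between libraries in WT fluoxetine females, where the SD of all 4 shares was the widest of the 12 groups with the longest transcript as length. By coding length this held for Grin2c and Grin2d, while the Grin2b SD was widest in HT lithium females and the Grin2a SD in HT vehicle males. The Grin2b share ran from 46.3% ± 2.40 (SD, n = 5) in WT vehicle males to 51.8% ± 1.46 (SD, n = 5) in WT fluoxetine males. For Grin2a it ran from 23.1% ± 3.64 (SD, n = 5) in WT fluoxetine females to 28.4% ± 2.52 (SD, n = 5) in HT fluoxetine females. Grin2d, the smallest part, ran from 4.8% ± 0.649 (SD, n = 5) in WT fluoxetine males to 7.93% ± 3.27 (SD, n = 5) in WT fluoxetine females.

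**Figure D1:**
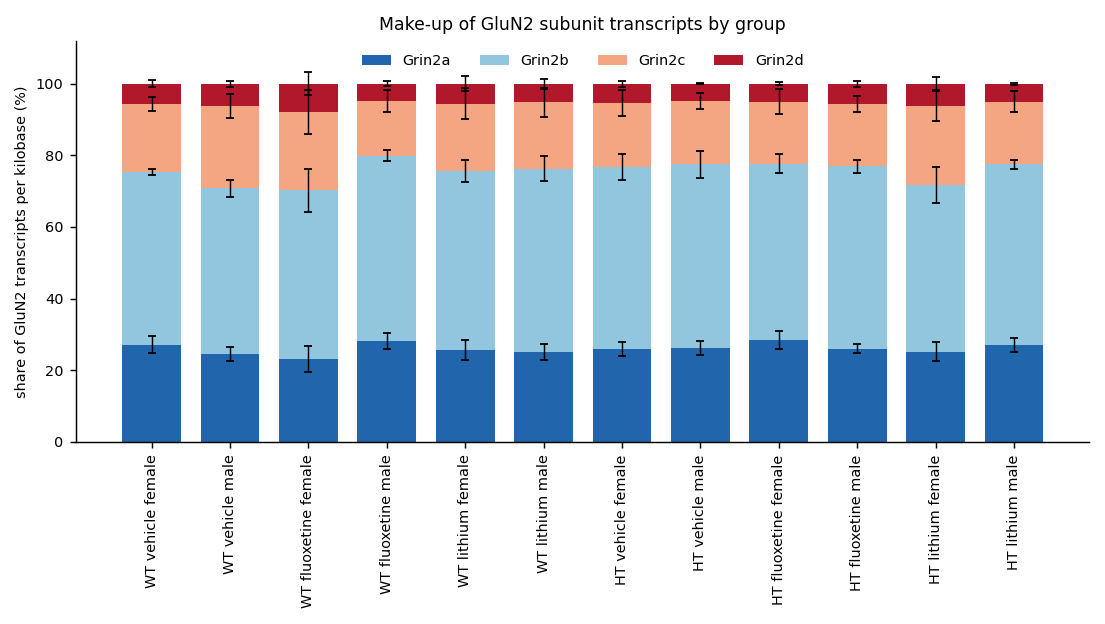
Stacked bars give the mean share (%) of Grin2a, Grin2b, Grin2c and Grin2d in their summed normalised counts per kilobase of longest transcript, for each of the 12 groups, and error bars give the SD over libraries of the share they top. Grin2b is the largest segment in every group, between 46.3% and 51.8%.

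Across the 12 groups the highest mean of a member was between 1.29 (Grin1) and 1.535 (Grin2d) times its lowest. Grin1 ran from 13176 ± 1145 (SD, n = 5) normalised counts in WT vehicle females to 17038 ± 3148 (SD, n = 5) in WT fluoxetine females. Grin2a ran from 5656 ± 795 (SD, n = 5) in HT vehicle females to 7503 ± 907 (SD, n = 5) in WT fluoxetine males, and Grin2b from 16969.8 ± 796 (SD, n = 5) in WT vehicle females to 22619 ± 1346 (SD, n = 5) in WT fluoxetine males. The other GluN2 genes both had their lowest mean in HT vehicle females. Grin2c there was 1275 ± 129 (SD, n = 5), against 1768 ± 218 (SD, n = 5) in WT vehicle males, its highest group. Grin2d ran from 435 ± 47.4 (SD, n = 5) to 667 ± 182 (SD, n = 5) in WT fluoxetine females. Grin3a ran from 1375 ± 121 (SD, n = 5) in WT lithium males to 1877 ± 150.0 (SD, n = 5) in HT fluoxetine males. When the 12 means of a member were put in order, neighbours in that order lay within the larger of their SDs for 11 of 11 pairs in Grin2a, Grin2b, Grin2c and Grin2d, and for 10 of 11 in Grin1 and Grin3a. The exceptions were the step in Grin1 from HT vehicle females to HT fluoxetine females (13300.5 to 15374) and that in Grin3a from WT lithium males to HT lithium females (1375 to 1533). Ordering puts close means side by side, so these counts do not show that the groups were alike.

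**Figure D2:**
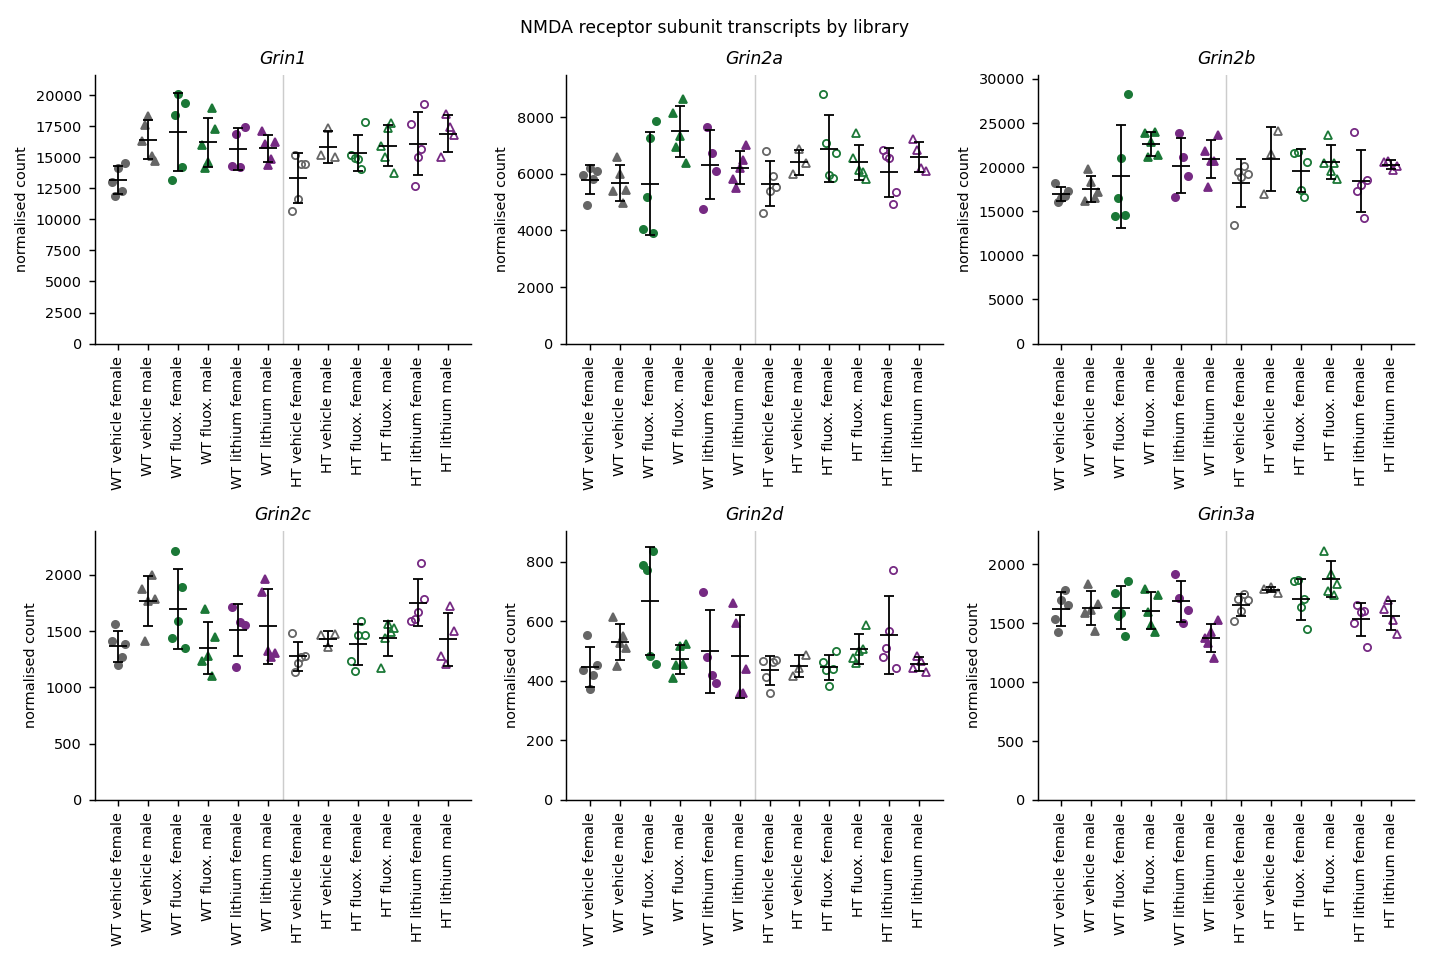
Each panel gives the normalised count of 1 member on a linear axis from 0, with 1 point per library (circles females, triangles males, filled WT, open HT; grey vehicle, green fluoxetine, purple lithium) and the mean ± SD of the group in black. Many group ranges overlap and some do not, such as Grin2c in HT vehicle and HT lithium females, and Grin2d has 3 WT fluoxetine females at 773 or more where the highest vehicle library of either sex and genotype was 614.

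The comparisons of drug and genotype ask whether the receptor's transcripts moved with early exposure to either drug or with the Shank3 allele. With the sexes averaged, 0 of 6 members passed the limma-trend test (Benjamini-Hochberg adjusted p below 0.05 over 18026 genes) in any of the 7 comparisons. Of all tested genes, 11.7% were called for lithium in WT, 5.18% for fluoxetine in WT and 9.77% for lithium in HT, and 0% for fluoxetine in HT and for HT against WT under each of the 3 treatments. Other settings called genes in those 4: with array weights 163 for fluoxetine in HT and 1071 for HT against WT under fluoxetine, and without the 14 most olfactory libraries 828 for HT against WT under lithium. An unadjusted p under 0.05 was reached by 1 member for lithium in WT, 2 for fluoxetine in WT, 3 for lithium in HT, 1 for HT against WT under fluoxetine and 0 in the other 3. edgeR on the recovered reads also called 0 members in each, and DESeq2 called 1, Grin2b for lithium in WT. The median log2 change of the 6 members was 0.038 for lithium in WT, 0.16 for fluoxetine in WT and 0.12 for lithium in HT, beside medians over all genes of -0.0029, -0.0073 and 0.0021. These are tissue values, in which fewer cells that express a gene and less RNA per cell cannot be told apart.

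**Figure D3:**
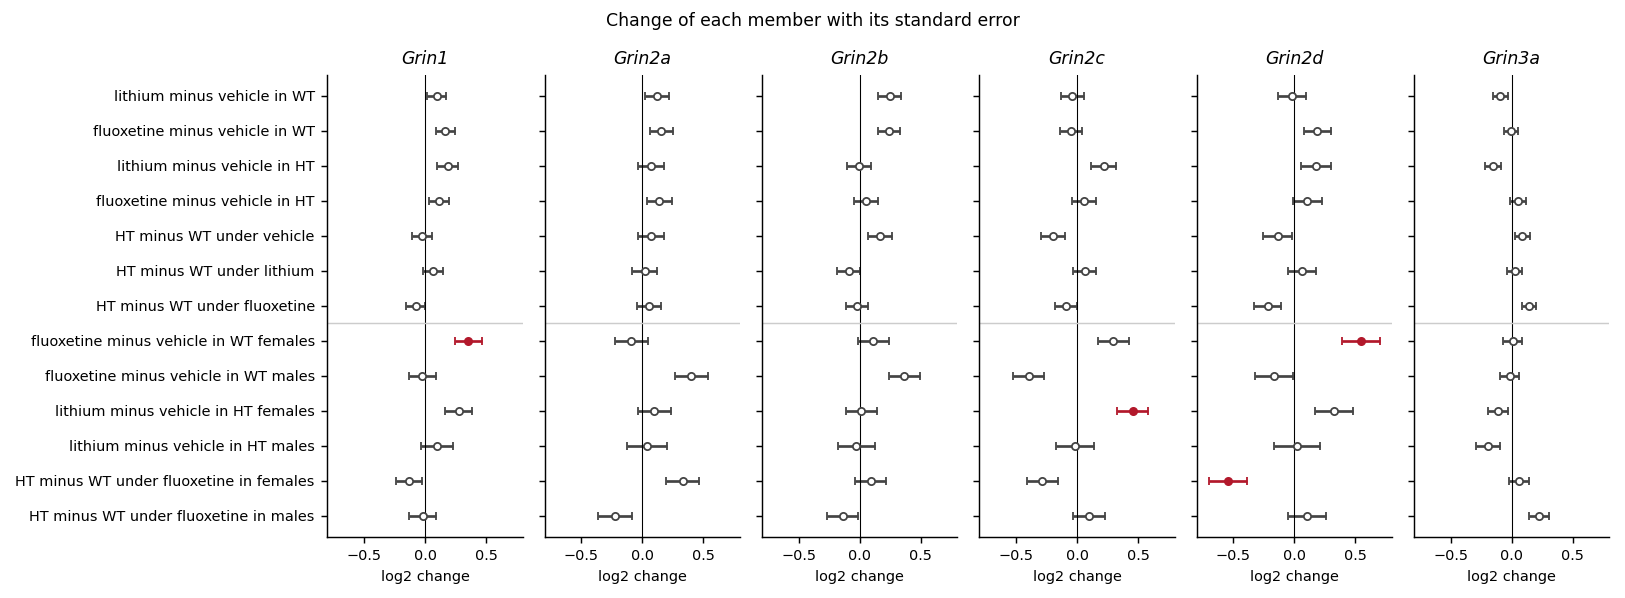
Points give the log2 change of each member with bars of 1 SE from the limma-trend fit, above the grey line for the 7 comparisons with the sexes averaged and below it for 6 comparisons within a sex; filled red points passed the adjusted threshold. No red point lies above the line, and the 4 below it are Grin1 and Grin2d for fluoxetine in WT females, Grin2c for lithium in HT females and Grin2d for HT against WT under fluoxetine in females.

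Grin1, the obligatory subunit, had log2 changes of 0.17 ± 0.076 (SE) for fluoxetine in WT (adjusted p = 0.208) and 0.18 ± 0.085 for lithium in HT (adjusted p = 0.172), and did not pass the limma test in either. For lithium in WT it was 0.10 ± 0.079 and for fluoxetine in HT 0.11 ± 0.083. It passed for fluoxetine in WT with array weights, which weight each library by its fit (0.21, adjusted p = 0.0255), and for lithium in HT without the 14 most olfactory libraries (0.25, 0.0183). The 3 genotype differences lay between -0.076 and 0.065.

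Grin2b, which carries the glutamate site of the early-life receptor, came nearest to a call. Among WT vehicle females the libraries had 18175, 16092, 16539, 16777 and 17266 normalised counts, and among WT lithium females 16603, 23924, 21161 and 19030.2. WT vehicle males had 16122, 19749.8, 18290, 16493 and 17192, and WT lithium males 21869, 17794, 20750.1, 20722 and 23655. In each sex the lithium range began inside the vehicle range, and 3 of 4 lithium females and 4 of 5 lithium males lay above every vehicle library of their sex. The log2 change with lithium in WT was 0.25 ± 0.093 (SE) and missed the threshold (limma adjusted p = 0.0752). It passed when only the compared groups were fitted (adjusted p = 0.0160), with array weights (0.00783), with DESeq2 (0.0493), with the olfactory or the striatal level as a covariate (0.0196 and 0.0461), and without the 14 most olfactory libraries (0.00800). It also passed without WT lithium female replicate 1 (0.29, adjusted p = 0.0402) and without WT fluoxetine female replicate 5 (0.0373). After each library was corrected for its trend with GC content and transcript length, the change was 0.028 (adjusted p = 0.916).

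Fluoxetine gave a similar value for Grin2b in WT, 0.24 ± 0.09 (limma adjusted p = 0.11), with unlike values in the sexes. WT fluoxetine males had 23853, 21141, 22810, 23969.7 and 21322, all 5 above the vehicle males, with a change of 0.37 ± 0.13 that did not pass (adjusted p = 0.133; 1.03% of all genes were called there). WT fluoxetine females spread over the whole range, at 14409, 16479.7, 21086, 14539 and 28242, with a change of 0.11 ± 0.13. The male minus female difference was 0.26 ± 0.18 (adjusted p = 0.388). In HT the Grin2b change was -0.0083 ± 0.10 with lithium and 0.051 ± 0.10 with fluoxetine. The lithium effect in HT minus that in WT was -0.25 ± 0.14 (adjusted p = 0.574), so the genotypes were not shown to differ. That difference was called for 0 of 6 members and 0.0166% of all genes, and its counterpart for fluoxetine for 0 of 6 and 0%. HT against WT under vehicle was 0.16 ± 0.10 (adjusted p = 0.781).

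Grin2a, the subunit gained with maturation, was at 5381, 6594, 5992, 4965 and 5445 in WT vehicle males and 8168, 6959.9, 7339.9, 8649 and 6401 in WT fluoxetine males. The lowest fluoxetine male fell just below the highest vehicle male, and the other 4 lay above all vehicle males. That change was 0.40 ± 0.14 (limma adjusted p = 0.121). In WT females it was -0.091 ± 0.14, where the libraries given fluoxetine held 4049, 5191, 7253, 3927 and 7869 against 5951, 4896, 6217, 5829.7 and 6118 under vehicle. The fluoxetine females thus included both the lowest and the highest values of those 10. With the sexes averaged no Grin2a change exceeded 0.16 ± 0.10, for fluoxetine in WT.

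When the 14 libraries of highest olfactory level were left out, which leaves 2 WT fluoxetine females, 3 members were called for fluoxetine in WT: Grin1 (0.28, limma adjusted p = 0.0128), Grin2a (0.36, 0.00650) and Grin2b (0.42, 0.000793). That fit called 1734 of 18026 genes for this comparison, where the fit of all libraries called 933. After the GC and length correction on all libraries, Grin2b for fluoxetine in WT was 0.094 (adjusted p = 0.717). Leaving out WT fluoxetine female replicate 1 alone also brought Grin2b past the threshold (0.28, adjusted p = 0.0444).

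The Grin2a to Grin2b ratio was taken within each library, where the size factor cancels, as the log2 of the ratio of normalised counts. A value below 0 means fewer Grin2a than Grin2b counts, and all 56 libraries were below 0. The counts were not divided by transcript length (14634 bases in Grin2a, 24060 in Grin2b), so the level of the ratio depends on it. Per kilobase of longest transcript Grin2a was also lower, at a mean of 427 against 812. In WT the means were -1.55 ± 0.12 (SD, n = 5) in vehicle females, -1.63 ± 0.063 (SD, n = 5) in vehicle males, -1.75 ± 0.15 (SD, n = 5) in fluoxetine females and -1.60 ± 0.10 (SD, n = 5) in fluoxetine males. Lithium-treated WT mice had -1.68 ± 0.08 (SD, n = 4) in females and -1.75 ± 0.092 (SD, n = 5) in males. In HT the vehicle means were -1.68 ± 0.14 (SD, n = 5) in females and -1.69 ± 0.21 (SD, n = 3) in males. HT fluoxetine females had -1.51 ± 0.13 (SD, n = 5) and males -1.68 ± 0.041 (SD, n = 5), and HT lithium females -1.60 ± 0.20 (SD, n = 5) and males -1.62 ± 0.09 (SD, n = 4). The 12 means spanned 0.24 on the log2 scale, and 11 of 11 neighbours in their order lay within the larger of their SDs. Ordering favours such closeness, so the count does not show that the groups were alike.

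**Figure D4:**
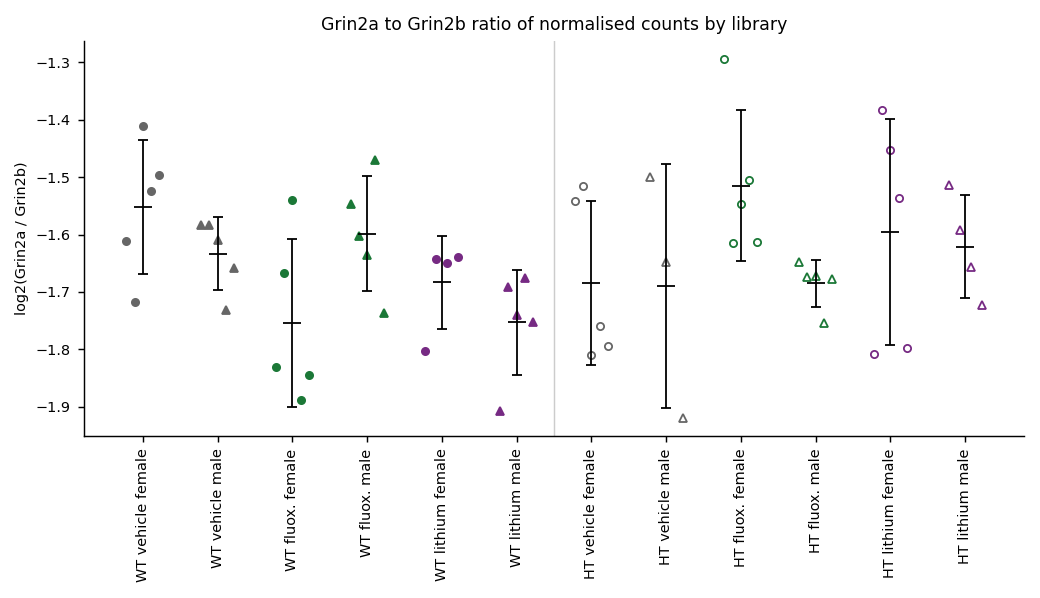
Each point is the log2 of the ratio of Grin2a to Grin2b normalised counts in 1 library (circles females, triangles males, filled WT, open HT; grey vehicle, green fluoxetine, purple lithium), with mean ± SD in black; the axis does not start at 0. Group means run from -1.75 in WT fluoxetine females to -1.51 in HT fluoxetine females, and all 56 points lie below 0.

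Of the 7 comparisons with the sexes averaged, the ratio passed the test for lithium in WT, by a narrow margin. WT vehicle females had log2 ratios of -1.61, -1.72, -1.41, -1.52 and -1.50 and WT lithium females -1.80, -1.64, -1.65 and -1.64. WT vehicle males had -1.58, -1.58, -1.61, -1.73 and -1.66 and WT lithium males -1.91, -1.69, -1.74, -1.68 and -1.75. The groups overlapped in both sexes, with the lithium means lower in each. With the sexes averaged the difference was -0.13 ± 0.041 (SE), a fold of 0.917, with an exact two-sided permutation p of 0.00693 and an adjusted p of 0.0485 over the 7 comparisons. The adjusted p was 0.198 after the GC and length correction (difference -0.058) and 0.0743 without the 14 most olfactory libraries. It rose above 0.05 without any 1 of 15 of the 19 libraries (differences -0.13 to -0.11, adjusted p 0.0578 to 0.145), and the call remained only without WT lithium males 2 or 4, WT vehicle female 2 or WT vehicle male 4. The difference was below 0 in each of these settings.

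None of the other 6 comparisons of the ratio passed, with adjusted p from 0.268 to 0.324 by the exact permutation test. The differences were -0.083 for fluoxetine in WT, 0.078 for lithium in HT, 0.087 for fluoxetine in HT, and for HT against WT -0.094 under vehicle, 0.11 under lithium and 0.076 under fluoxetine. Within a sex none of 14 comparisons passed, with a smallest adjusted p of 0.222. The smallest unadjusted exact p belonged to lithium in WT males (-0.12, p = 0.0317) and to HT against WT under fluoxetine in females (0.24, p = 0.0397). Males minus females over all groups was -0.033 (permutation p = 0.364).

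With the sexes averaged, the drug effects on the ratio differed between genotypes by a permutation test of the difference itself. The test used residuals of the additive model and 100000 resamples. The lithium effect in HT minus that in WT was 0.20 (adjusted p = 0.0323 over 2). The fluoxetine effect in HT minus that in WT was 0.17 (adjusted p = 0.0414). The fluoxetine effect was -0.20 in WT and 0.17 in HT females, but 0.035 in WT and 0.0042 in HT males. That of lithium was -0.13 in WT and 0.088 in HT females, and -0.12 and 0.068 in males. The difference between genotypes was not tested within a sex. Both genotype differences rest on the same vehicle libraries, in which HT minus WT was -0.094 and was not called. Without the 14 most olfactory libraries they were 0.10 (adjusted p = 0.202) and 0.17 (0.188). After the GC and length correction the fluoxetine difference was 0.14 (adjusted p = 0.0913). The lithium call ended without HT vehicle female 3 or 5, HT vehicle male 3 or WT vehicle female 3 (values 0.15 to 0.19). The fluoxetine call ended without any of 16 of 38 libraries (values 0.11 to 0.17), which were HT fluoxetine female 1 and male 1, HT vehicle females 3, 4 and 5 and male 3, WT fluoxetine females 1, 4 and 5 and males 3 and 5, WT vehicle females 3, 4 and 5 and males 1 and 2.

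Grin2c and Grin2d, the GluN2 genes of lower abundance, were the members that passed within a sex, together with Grin1. Across 14 comparisons within a sex, 4 of 84 member tests were called, beside 0% to 12.1% of all genes per comparison. Those calls fell in 3 comparisons, and no member was called in the other 11, which include lithium in WT females (6.62% of all genes called) and males (2.3%), fluoxetine in HT females (0.727%), HT against WT in vehicle males (0.261%) and HT against WT in fluoxetine males (0.00555%). Grin2c, known from cerebellum and glia, was at 1482, 1132, 1221, 1267 and 1275 in HT vehicle females and 1594, 1609, 1669, 2102 and 1787 in HT lithium females. All 5 lithium females lay above all 5 vehicle females. The log2 change was 0.46 ± 0.13 (SE), a fold of 1.37 (limma adjusted p = 0.0149), in a comparison that called 10.5% of all genes. The olfactory level was 2.61, 0.0894, 0.188, 0.483 and 0.943 in those vehicle females and 0.288, 1.54, 1.71, 3.23 and 0.188 in the lithium females. Without the 14 most olfactory libraries the change was 0.46 (adjusted p = 0.0295). That fit left out 3 of the 5 lithium females and kept replicates 1 and 5, of which 5 stood apart in mitochondrially encoded genes. With the GC and length correction the change was 0.26 (adjusted p = 0.194). Without HT lithium female replicate 4 it was 0.39 (adjusted p = 0.0590), and without HT vehicle female replicate 2 0.41 (0.0501). Averaged over the sexes the change in HT was 0.22 ± 0.10 (adjusted p = 0.172), and it passed with array weights (0.0467) and when the olfactory level was a covariate (0.0349). In HT males lithium gave -0.019 ± 0.16, and the male minus female difference of -0.47 ± 0.20 was not called (adjusted p = 0.467).

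The fluoxetine change of Grin2c in WT differed between the sexes. WT females had 1408, 1564, 1199.9, 1271 and 1384 under vehicle and 1439, 2215, 1591, 1895 and 1351 under fluoxetine, a change of 0.30 ± 0.13 (limma adjusted p = 0.122). WT males had 1873, 1415, 1765, 2002 and 1785 under vehicle and 1234, 1694, 1275, 1104 and 1445 under fluoxetine, a change of -0.40 ± 0.13 (adjusted p = 0.105). The groups overlapped in both sexes and neither change passed. Their difference, males minus females, was -0.69 ± 0.18 and did pass (adjusted p = 0.0171), where 7.74% of all genes were called. It was -0.34 after the GC and length correction (adjusted p = 0.298), -0.51 without the 14 most olfactory libraries (0.268), and -0.59 without WT fluoxetine female replicate 2 (0.0561). Fitted on the compared groups only, its adjusted p was 0.0514. Under vehicle the mean was 1365 in females and 1768 in males, with 4 of 5 males above every female.

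Grin2d, expressed in interneurons of the adult cortex, rose in WT fluoxetine females. The WT vehicle females had 435, 553, 371, 419 and 453 normalised counts and the WT fluoxetine females 788, 773, 482, 836 and 457, in the order of their replicate numbers. Fluoxetine replicates 1, 2 and 4 were above every vehicle female, and replicates 3 and 5 were inside the vehicle range. The log2 change was 0.54 ± 0.16 (SE), a fold of 1.46 (limma adjusted p = 0.0154), where 12.1% of all genes were called. The olfactory level of the same 5 fluoxetine libraries was 4.06, 2.74, 0.127, 4.41 and 0.0769, against 1, 2.27, 0.121, 1.28 and 1.30 in the vehicle females. The 3 libraries with high Grin2d were thus the 3 with high olfactory marker levels. With the olfactory level as a covariate the change was 0.54 (adjusted p = 0.000217), whereas without the 14 most olfactory libraries it was 0.17 (0.413). It was 0.30 (0.273) after the GC and length correction, and its adjusted p was 0.152 with the compared groups only. Leaving out 1 library ended the call for WT fluoxetine females 1, 2 and 4 and WT vehicle female 3, with values of 0.45 to 0.48.

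The same WT fluoxetine females entered both other Grin2d calls. HT fluoxetine females had 463, 436, 382, 440.4 and 501, so that HT minus WT under fluoxetine in females was -0.54 ± 0.16 (limma adjusted p = 0.0468; 2.56% of all genes called). Without the 14 most olfactory libraries this was -0.084 (adjusted p = 0.837). It was also lost with the GC and length correction (-0.36, 0.170), without the variance trend (0.0567), with the compared groups only (0.372), with the striatal level as a covariate (-0.49, 0.107), and without any 1 of 19 libraries. Of those, WT fluoxetine females 1, 2 and 4 and HT fluoxetine females 1 to 4 moved the value (to between -0.56 and -0.45) and the other 12, in groups not compared, moved only the p. WT males had 614, 449.8, 526.4, 549.8 and 509 under vehicle and 408, 454, 517, 455 and 523 under fluoxetine, which overlap, with a change of -0.17 ± 0.16. The male minus female difference of the fluoxetine change in WT was -0.71 ± 0.22 (adjusted p = 0.0375). It was -0.31 without the 14 most olfactory libraries (adjusted p = 0.372) and -0.29 after the GC and length correction (0.506). The adjusted p was also above 0.05 with the compared groups only (0.0745), with the striatal level (0.120), and without any 1 of WT fluoxetine females 1, 2 and 4 or males 1 and 2, WT vehicle females 1, 3 and 4 or males 1, 3 and 4 (values -0.71 to -0.62). These calls of Grin2c and Grin2d were the only 2 of 42 such tests of members. Both fell in the sex difference that called 7.74% of all genes, where the other sex differences called 0% to 0.172%. Averaged over the sexes Grin2d was 0.19 ± 0.11 for fluoxetine in WT (adjusted p = 0.348, or 0.27 and 0.00859 with the olfactory covariate), and -0.22 ± 0.11 for HT against WT under fluoxetine (adjusted p = 0.448, or -0.32 and 0.0384 with array weights).

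Grin1 also rose in WT fluoxetine females. WT vehicle females had 13026, 11888, 14136, 12290.4 and 14539.6 and WT fluoxetine females 13147, 18410, 20065, 14201 and 19365. Replicates 2, 3 and 5 lay above all vehicle females, and replicates 1 and 4 within their range. The change was 0.35 ± 0.11 (SE), a fold of 1.28 (limma adjusted p = 0.0237). Unlike for Grin2d, it was 0.55 without the 14 most olfactory libraries (adjusted p = 0.00818), which leaves 2 WT fluoxetine females. After the GC and length correction it was 0.17 (adjusted p = 0.303). The slope of log2 values per 10 percentage points of GC was between 0.0362 and 0.185 in the fluoxetine females and between -0.153 and 0.0366 in the vehicle females. Its adjusted p was 0.174 with the compared groups only. Without WT fluoxetine females 2, 3 or 5 or WT vehicle females 2 or 4 the change was 0.29 to 0.33 and the call was lost. In WT males fluoxetine gave -0.022 ± 0.11, and the difference between the sexes was not called (-0.38 ± 0.15, adjusted p = 0.113).

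Grin3a, whose subunit lowers calcium entry and which is typical of young synapses, passed no test of lithium in the main limma-trend fit. HT vehicle males had 1792, 1808 and 1760.2 and HT lithium males 1617, 1699, 1530.5 and 1412. The log2 change there was -0.19 ± 0.098 (SE) and did not pass (limma adjusted p = 0.467), in a comparison that called 0.0166% of all genes. HT vehicle females had 1520.2, 1704, 1608, 1748 and 1699 and HT lithium females 1500.2, 1658, 1597, 1608 and 1302. Their change was -0.11 ± 0.081 (limma adjusted p = 0.414). With the sexes averaged the log2 change in HT was -0.15 ± 0.064 and missed the threshold (limma adjusted p = 0.118). Past the threshold were the fit with array weights (0.0344) and the one that left out the 14 most olfactory libraries (-0.23, 0.0192). In WT the change was -0.093 ± 0.059, with -0.24 ± 0.081 in males (adjusted p = 0.0995) and 0.056 ± 0.086 in females. Under fluoxetine HT minus WT was 0.14 ± 0.057 (adjusted p = 0.361). Over all groups, males minus females was not called for any of 6 members, where 0.283% of genes were, and 2 members had an unadjusted p under 0.05, Grin1 at 0.11 ± 0.046 and Grin2b at 0.14 ± 0.054.

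Within groups the members fell into sets that varied together. With the group means removed, Grin2a and Grin2b correlated over the 56 libraries with Pearson r = 0.84 and Spearman rho = 0.80, each with a permutation p of 1e-05, the smallest that 100000 resamples give (adjusted p = 7.5e-05 over 15 pairs). Without the 2 libraries farthest from the median r was 0.80. Grin2c and Grin2d also correlated, with r = 0.55 (permutation p = 0.000790, adjusted 0.00237), rho = 0.52 (permutation p = 0.000700) and r = 0.51 without the 2 farthest. Grin2a ran against both. Grin2a had r = -0.64 and rho = -0.74 with Grin2c (each with a permutation p of 1e-05, r = -0.65 without the 2 farthest). With Grin2d it had r = -0.60 (permutation p = 0.000420) and rho = -0.53 (permutation p = 0.000810; r = -0.54 without the 2 farthest). Grin1 went with Grin2b (r = 0.52, permutation p = 0.00272; rho = 0.49, permutation p = 0.00124; r = 0.45 without the 2 farthest). The adjusted p of these relations was 0.00669 or less. Grin3a ran against Grin2c (r = -0.40, permutation p = 0.00979, adjusted 0.0163; rho = -0.46, permutation p = 0.00272, adjusted 0.00583; r = -0.41 without the 2 farthest), and its other 4 pairs did not pass, such as that with Grin1 (r = 0.0013, permutation p = 0.993; rho = 0.013, permutation p = 0.934). After the GC and length correction r of Grin1 was 0.78 with Grin2a (from 0.47), 0.78 with Grin2b, -0.66 with Grin2c (from -0.15) and -0.61 with Grin2d (from -0.22), values that are given with no test.

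The olfactory level ran with the same division. Among 21 relations with library measures, Grin2d had r = 0.75 and rho = 0.76 with the log2 olfactory level, and Grin2c r = 0.58 and rho = 0.60, all with a permutation p of 1e-05 and an adjusted p of 7e-05. Without the 2 farthest libraries r was 0.72 and 0.54. In the other direction, Grin2a had r = -0.66 (permutation p = 3e-05) and rho = -0.62 (permutation p = 5e-05). For Grin2b they were -0.65 (permutation p = 4e-05) and -0.60 (permutation p = 7e-05), and for Grin1 -0.60 (permutation p = 0.000170) and -0.57 (permutation p = 0.000280). Adjusted p was 0.000980 or less for each. Without the 2 farthest libraries these 3 values of r were -0.63, -0.62 and -0.58. No such relation was detected for Grin3a (r = -0.16, permutation p = 0.312; rho = -0.15, permutation p = 0.332), or for the Grin2a to Grin2b ratio (r = -0.12, permutation p = 0.461; rho = -0.12, permutation p = 0.474). The GC slope ran with Grin1 (r = 0.69, rho = 0.69, each with a permutation p of 1e-05; r = 0.64 without the 2 farthest) and was 0.38 after the GC and length correction, which removes much of it by construction. Depth in reads gave no called relation, with r between -0.093 and 0.21 and a smallest adjusted permutation p of 0.380 for r and 0.317 for rho.

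**Figure D5:**
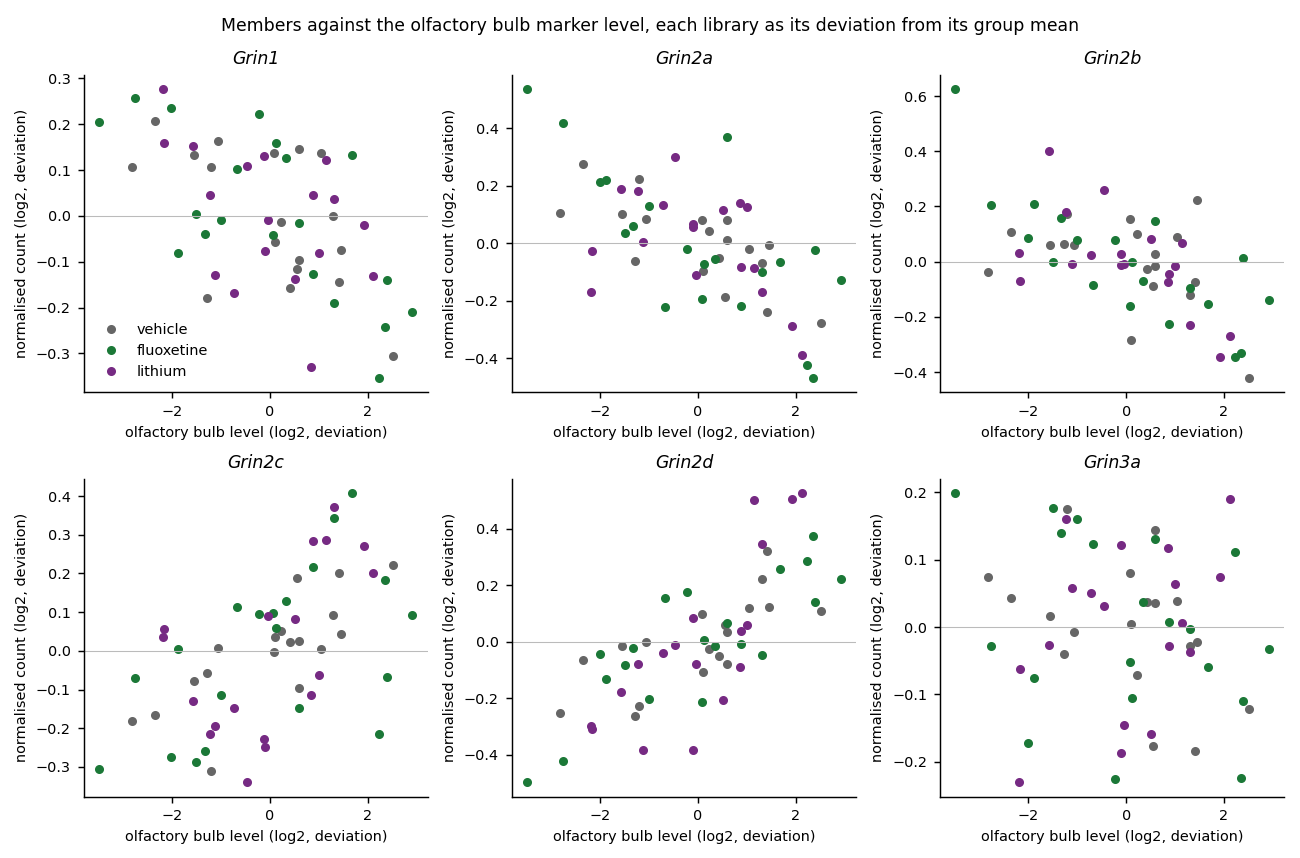
Each panel plots the deviation of 1 member from its group mean (log2 normalised count, y axis) against the deviation of the log2 olfactory bulb level from its group mean (x axis), 1 point per library, coloured by drug. Grin2c and Grin2d climb with the olfactory level (r = 0.58 and 0.75), Grin1, Grin2a and Grin2b fall with it, and Grin3a has r = -0.16.

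The genes whose log2 values were most like those of a member, over 56 libraries and 15019 named genes, are given as a description; library composition, base composition and depth are shared by all genes of a library. Closest to Grin1 were Ap2a1 (r = 0.93) and Dnm1 (0.90), which act in endocytosis, and the kinase Wnk2 (0.89). Grin2a was closest to Atp2a2 (0.90), a calcium pump of the endoplasmic reticulum, Hecw1 (0.89) and Arfgef3 (0.89). Grin2b was closest to the ubiquitin ligase Nedd4l (0.86), then to Grin2a itself (0.83) and Atp8a1 (0.83). For Grin2d they were Slc32a1 (0.88), the vesicular GABA transporter, the potassium channel Kcnh2 (0.88) and Sema4g (0.87). For Grin2c they were Phldb1, Hmbox1 and Mtss1l (0.80, 0.80 and 0.79). After the GC and length correction these values of r were 0.70, 0.53 and 0.63. Those of the other members were then between 0.67 (Grin3a with Cd44) and 0.90 (Grin2a with Hecw1). Grin3a had weaker matches, Arsb, Setd5 and Cd44 (0.65, 0.65 and 0.64).

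Genes around the receptor were called in the 3 of the 7 comparisons with the sexes averaged in which limma called any gene. Of 81 tested genes in lists of scaffolds and trafficking proteins, co-agonist supply, kinases and phosphatases, calcium signalling and transcription factors, 4 rose and 2 fell with lithium in WT, 5 and 1 with fluoxetine in WT, and 5 and 3 with lithium in HT, and 0 were called in the other 4. Of all tested genes, 11.7%, 5.18% and 9.77% were called in these 3 comparisons and 0% in the other 4. The medians over the 81 genes were 0.016, 0.0097 and 0.036, beside medians over all genes of -0.0029, -0.0073 and 0.0021. Whether the lists differed from all genes was not tested. By list, lithium in WT called 3 of 18 calcium signalling genes, 2 of 16 co-agonist genes, 1 of 24 kinases and phosphatases, and 0 of 16 scaffolds and 0 of 8 transcription factors, with 1 gene in 2 lists. Dapk1, a calmodulin-regulated kinase that binds GluN2B, rose in both genotypes with lithium (0.24 ± 0.034, adjusted p = 3.41e-06 in WT and 0.19 ± 0.037, adjusted p = 0.000512 in HT by limma). The GC and length correction left 0.17 in WT (adjusted p = 0.000162) and 0.11 in HT (0.0586). Slc1a4, a carrier of serine and other neutral amino acids, rose (0.19 ± 0.05, adjusted p = 0.00815 in WT and 0.21 ± 0.053, adjusted p = 0.00924 in HT). Calm2, which encodes calmodulin, fell (-0.26 ± 0.061, adjusted p = 0.00298 in WT and -0.24 ± 0.066, adjusted p = 0.0144 in HT).

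Mef2d, an activity-regulated transcription factor, rose with lithium in WT (0.19 ± 0.051, adjusted p = 0.0106). With fluoxetine in WT, Nrf1, a transcription factor with sites in NMDA receptor genes (0.22 ± 0.052, adjusted p = 0.00724), the scaffold Mpp2 (0.19 ± 0.045, adjusted p = 0.00812) and the CREB coactivator Crtc1 (0.23 ± 0.063, adjusted p = 0.0205) also rose. After the GC and length correction Nrf1 and Mpp2 passed (adjusted p = 0.00595 and 0.0461), and Crtc1, Mef2d, Slc1a4 and Calm2 did not (adjusted p from 0.0590 to 0.475). Comparisons of both drugs with vehicle in a genotype share the vehicle libraries.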

How the data were processed

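Per the labels' protocols, mRNA was made into libraries by the TruSeq Stranded kit. In the deposited table the authors give 1 signal per gene and library: its gene count after division by the library's size factor. The submitters' processing notes name Salmon 0.11.2, R 3.6.0, DESeq2 1.19.11 and the build GRCm38, with no role or order. Scaling by library hides changes in total RNA per cell. Of 59 columns, 3 had no matching sample and were left out, and 1 labelled WT lithium female was not analysed here, which left 56 libraries. All values were whole multiples of what 1 read is worth (100% within 1e-06), which gave 22984556 to 35969254 recovered reads per library and so a small counting error for each member. No pair of libraries in a group agreed within sampling noise (105 pairs, smallest chi-square per degree of freedom 4.71).

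The members and all gene lists were chosen with earlier results of these data known. Values were taken as log2(value + 1), which understates changes of low genes, for 18026 genes with at least 10 in at least 3 libraries. One limma-trend fit (limma 3.58.1, R 4.3.3, 44 residual degrees of freedom) held all 12 groups. Contrasts were two-sided, with Benjamini-Hochberg adjustment over all genes and a threshold of 0.05: 7 with the sexes averaged, 14 within a sex, 7 sex differences, 2 interactions and 1 over sexes. The ratio was tested by exact permutation (Python 3.11.15, scipy 1.17.1), and correlations with 100000 resamples within groups. The alternatives were limma without the trend, TMM factors, no filter, a pseudocount of 5, the compared groups only, a replicate block, array weights, edgeR 4.0.16 and DESeq2 1.42.0 on the recovered reads, a within-library correction for GC content and length (natural splines, 4 degrees of freedom each), olfactory or striatal covariates, and leaving out libraries. For lithium in WT, edgeR called 2168 genes and DESeq2 2389, against 2109 with limma. On simulated counts of 18026 genes for that comparison, limma recovered 91% of 100 genes changed by 0.5 on the log2 scale and 100% of 100 changed by 1, with 8 false among 199 calls. The changed genes had means above 100 and only rose, and no variation in olfactory level or GC slope was simulated. These rates therefore need not hold for the real libraries. Named genes were all 6 members in each comparison with the sexes averaged, up to 4 called genes of smallest p per comparison from the pathway lists, and the 3 named genes most like each member; some items that this rule or the sequence display would include are not reported here. Symbols matched 18077 of 18088 identifiers. Coordinates, lengths and coding stretches came from the GENCODE annotation of GRCm38, and promoter windows from RefSeq (GRCm38.p6).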

Additional observations from a re-analysis of the deposited data

Results flagged for a closer look

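One library stood far below the others of its group for Grin2b. HT vehicle female replicate 1, which also stood apart in choroid plexus genes and had an olfactory level of 2.61, had 13472 normalised counts, where the other 4 had 18860.4 to 20094. For the Grin2a to Grin2b log2 ratio, WT lithium female replicate 1 had -1.80 beside -1.65 to -1.64 in the other 3, and HT fluoxetine male replicate 4 had -1.75 beside -1.68 to -1.65 in the other 4. Of 77 groups of values examined this way 3 had such a library, and chance gives about 1 in 20.

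The effect of fluoxetine in WT differed between the sexes for Grin2c (-0.69, males minus females on the log2 scale, limma adjusted p = 0.0171) and for Grin2d (-0.71, adjusted p = 0.0375). In that sex difference 7.74% of all genes were called. Neither call held after the GC and length correction or without the 14 libraries of highest olfactory level. The effect on the Grin2a to Grin2b log2 ratio differed between the genotypes for lithium (0.20, HT minus WT, permutation adjusted p = 0.0323) and for fluoxetine (0.17, adjusted p = 0.0414). In females the fluoxetine effect on the ratio was -0.20 in WT and 0.17 in HT, but in males it was 0.035 and 0.0042. Both genotype differences use the same vehicle libraries, and neither was called without the 14 libraries of highest olfactory level.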

How the results depend on the processing

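With the sexes averaged, the count of members called was 0 for lithium in WT and became 1 with the compared groups only, array weights, DESeq2, either marker covariate, or without the 14 most olfactory libraries. For fluoxetine in WT it became 1 with array weights, 1 with the olfactory covariate and 3 without those 14 libraries, and for lithium in HT 2, 1 and 2. HT against WT under fluoxetine gave 1 with array weights. Within a sex, 4 calls in all became 1 with the compared groups only, 12 with array weights, and 1 after the GC and length correction, alone or with the replicate block. The 2 sex differences became 0 with the compared groups only, 7 with array weights, 0 after the GC and length correction (also with the replicate block), 4 with the olfactory covariate, 1 with the striatal covariate and 0 without the 14 libraries. Leaving out 1 library gave 0 to 1 for lithium and for fluoxetine in WT, 1 to 5 within a sex and 0 to 5 for sex differences. Counts over all genes moved as well: for fluoxetine in WT females from 2189 to 12 with the compared groups only, 4959 with array weights, 353 after the GC and length correction and 834 without the 14 libraries, for fluoxetine in WT from 933 to 421, 2877, 473 and 1734 in the same order (3052 with the olfactory covariate), for lithium in HT from 1761 to 3452 with array weights, 418 after the correction, 2886 with the olfactory covariate and 3042 without the 14, for lithium in WT from 2109 to 3349 and 3365 with array weights and the olfactory covariate, and for lithium in HT females from 1894 to 248 and 705 with the compared groups only and the correction. The sex difference of fluoxetine in WT went from 1395 genes to 378 with the compared groups only, 4624 with array weights, 325 with the striatal covariate, 1 after the correction and 0 without the 14. HT against WT under fluoxetine in females went from 461 to 1, 4439, 90, 8 and 0 in the same order (1449 with the olfactory covariate and 1058 with DESeq2). Array weights also called 4155 of 18026 genes for lithium in HT females, and the olfactory covariate 3760 for fluoxetine in WT females. The cause of these moves was not tested. limma without the trend, TMM factors, no filter, a pseudocount of 5 and edgeR kept each of these counts within 1.5 times.

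The ratio difference for lithium in WT was -0.058 after the GC and length correction and -0.10 without the 14 libraries, and leaving out 1 library gave -0.15 to -0.11. The genotype difference for lithium was 0.10 without the 14 libraries and 0.15 to 0.25 without 1 library. For fluoxetine it was 0.14 with the correction, 0.17 without the 14 and 0.11 to 0.22 without 1 library. With coding length in place of the longest transcript the GluN2 shares were 22.4% Grin2a, 69.0% Grin2b, 6.52% Grin2c and 2.03% Grin2d, and with the union of exons Grin2a was 23.1%. No value that passed changed direction in any setting, and of 4240 values uncalled in both fits 136 differed in sign.

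The labels do not say that a replicate number marks a shared litter or batch. The mean correlation of deviations was 0.00135 for libraries with the same number and -0.000380 for others, so the numbers were not taken to pair the libraries. With the replicate number as a block, the counts of members called stayed at 0 with the sexes averaged, 4 within a sex and 2 for sex differences. The ratio difference for lithium in WT was -0.12 (adjusted p = 0.260), and the genotype differences were 0.22 for lithium and 0.18 for fluoxetine, both still called.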
